A study of Rattus norvegicus with 10 samples.

Results

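The microglia genes are a list of 33 genes used as markers of microglia, the resident macrophages of the brain, and they were chosen by matching each listed symbol to the gene names in the expression tables of the rat medial prefrontal cortex (mPFC). The tables held 32 of the 33 among 22081 genes, and 30 of the 32 had enough reads for testing among 14135 tested genes. Itgam, the alpha chain of complement receptor 3, is on the list, but only its promoter and not its expression was analysed here. Siglech and Hpgds had too few exon reads to be tested.

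The samples were RNA-seq libraries from the mPFC of 10 male Sprague-Dawley rats, 1 library per rat, of which 5 came from high cue (HC) rats and 5 from low cue (LC) rats. Rats were 11 weeks old when training began and learned to press a lever for cocaine infusions of 0.75 mg/kg paired with a discrete cue. On a test in session 12, a median split of presses reinforced by the cue gave the HC phenotype (many presses) and the LC phenotype (few presses), after which all rats went on taking cocaine and then spent 10 days abstinent in the home cage. Tissue from the infralimbic, prelimbic and anterior cingulate cortex was taken on day 27. Every rat of both groups had therefore taken cocaine, and no drug-naive group was included. HC rats had also taken in more cocaine in all than LC rats, so phenotype and intake cannot be told apart. Some rats of each phenotype were given a second cue test before tissue was taken, and because the sample labels do not name them, what this test contributed was not tested. The question was whether the mPFC of the phenotypes differed in its RNA, and here whether microglial RNA was part of any difference.

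Microglia survey the brain with motile processes and take up debris and synapses. Their surface carries purinergic receptors such as P2ry12, which sense nucleotides released by other cells, and the fractalkine receptor Cx3cr1, which binds a ligand on neurons. They depend on signals through Csf1r, a receptor for Csf1 and Il34, and on the transcription factor PU.1 (encoded by Spi1), and they make most of the complement protein C1q found in the brain. When microglia take on an activated state, homeostatic receptors such as P2ry12 and Tmem119 typically fall while lysosomal, lipid-handling and antigen-presenting genes rise. In whole tissue, fewer microglia and less RNA per microglia cannot be told apart.

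PU.1 binds a purine-rich core, and the promoters of the list were searched for it because PU.1 drives many of these genes. RefSeq promoters of the GRCr8 assembly, each running from 250 bases before to 50 bases after a gene's start (300 bases), were found for 22 of the 33 listed genes. The letters GAGGAAG, read on both strands, were in 11 of the 22 (50.0%), against 12.4% of all 27457 rat promoters. An interferon regulatory factor element (GAAA, any 2 bases, then GAAA again), also read on both strands, was in 2 of the 22 (9.09%), against 3.77% of all promoters. The median GC content was 54.5% in the promoters of the list and 52.3% in all promoters. The 11 with the PU.1 letters were those of Cd53, Cd68, Csf1r, Csf3r, Ctss, Cyth4, Ikzf1, Inpp5d, Itgam, Laptm5 and Trem2. A match of letters is a description and not a binding site.

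Promoters of 4 of these genes are shown, chosen after their values were seen because the genes share the PU.1 letters close to the start and yet took opposite places in 1 library described below. Each is written in the direction of its gene, and the capitals mark the PU.1 letters, which in all 4 lie on the opposite strand and therefore read CTTCCTC. The capitals begin 16 bases before the start in Ctss (GRCr8 chr2:185775146-185775445, plus strand), 64 bases before it in Laptm5 (GRCr8 chr5:148371630-148371929, plus strand), 30 bases before it in Trem2 (GRCr8 chr9:20151730-20152029, minus strand) and 45 bases before it in Cd53 (GRCr8 chr2:197087847-197088146, minus strand).
Ctss: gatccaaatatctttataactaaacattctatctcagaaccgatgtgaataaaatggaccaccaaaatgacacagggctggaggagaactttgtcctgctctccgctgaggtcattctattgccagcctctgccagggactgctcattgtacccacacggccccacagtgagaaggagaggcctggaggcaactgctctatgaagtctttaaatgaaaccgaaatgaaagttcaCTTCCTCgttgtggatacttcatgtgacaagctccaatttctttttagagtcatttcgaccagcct
Laptm5: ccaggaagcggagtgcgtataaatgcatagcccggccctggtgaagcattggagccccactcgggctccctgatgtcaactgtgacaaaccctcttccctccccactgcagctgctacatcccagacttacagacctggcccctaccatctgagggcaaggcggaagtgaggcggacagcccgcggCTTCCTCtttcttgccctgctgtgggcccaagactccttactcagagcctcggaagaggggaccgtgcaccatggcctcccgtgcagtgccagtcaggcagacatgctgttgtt
Trem2: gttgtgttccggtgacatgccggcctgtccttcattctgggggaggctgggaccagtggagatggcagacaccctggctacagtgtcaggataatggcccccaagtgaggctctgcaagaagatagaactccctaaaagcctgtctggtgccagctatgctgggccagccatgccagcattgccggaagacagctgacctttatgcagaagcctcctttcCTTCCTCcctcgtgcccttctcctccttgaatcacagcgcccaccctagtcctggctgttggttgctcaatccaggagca
Cd53: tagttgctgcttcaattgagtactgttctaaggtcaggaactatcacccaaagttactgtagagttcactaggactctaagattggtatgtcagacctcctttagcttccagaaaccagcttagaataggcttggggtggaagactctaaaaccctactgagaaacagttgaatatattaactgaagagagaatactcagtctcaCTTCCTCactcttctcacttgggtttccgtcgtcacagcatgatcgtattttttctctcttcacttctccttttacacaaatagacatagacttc

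All coordinates of genes in what follows are on Rnor_6.0, the assembly used for the counts. The tables held between 11296517 and 26664008 exon reads per HC rat and between 12151550 and 23342946 per LC rat. Levels between genes are given in TPM (transcript abundance per length of exon, as deposited), and differences between rats are given in CPM (exon reads relative to the library total after TMM scaling). 1 library stood apart. In LC rat 2 the 13 mitochondrially encoded genes took 28.4% of exon reads. This share was 10.0% to 11.96% in the other LC rats and 7.65% to 10.8% in HC rats, with HC rats 9, 10, 11 and 15 below every LC rat. The TMM factor of LC rat 2 was 0.772 against 1.00 to 1.05 in the other 9 rats, and its summed neuronal marker level was 14176 CPM against 7672 to 8989 CPM. The neuronal markers did not move alike in it. Snap25 was the highest of all rats there (5901 CPM against 1665 to 2140 CPM), Slc17a7 was the lowest (1095 CPM against 1759 to 2020 CPM), and Gad1 lay within the range of the other rats. The deposited TPM count the mitochondrial genes in the total, and the summed TPM of the members was 471 in LC rat 2, against 780 to 894 in the other 9 rats. Values are therefore given with and without this rat where they rest on it. Of other cell types, markers of meningeal fibroblasts were high in HC rats 9 and 16 and LC rat 4 (1976 to 2791 CPM in sum, against 361 to 729 CPM in the other 7 rats). Of 18 markers of blood leukocytes 16 were in the tables, with sums of 2.42 to 2.98 CPM in HC rats and 2.31 to 3.43 CPM in LC rats, of which Lck made up 1.56 to 1.92 CPM in HC rats and 1.42 to 2.52 CPM in LC rats. At an unadjusted p of 0.05, markers of striatal neurons (Penk and Adora2a, 2 of 10), oligodendrocytes (Ermn, 1 of 12) and choroid plexus or ependyma (Ccdc153, 1 of 3) were lower in HC rats, with the summed striatal level at 777 CPM in LC rat 4 against 323 to 434 CPM in the other 9 rats. The tested markers of neurons, astrocytes, vascular cells, meningeal fibroblasts and red blood cells held 0 such genes.

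The levels of the microglia genes spanned more than 4 orders of magnitude only when Siglech, with 1 exon read, was counted. The other members ran from a mean of 196 TPM in the lysosomal protease Ctss (cathepsin S) down to 0.603 TPM in Hpgds. Ctss averaged 208 ± 14.7 TPM in the 5 HC rats (mean ± SD) and 184 ± 55.7 TPM in the 5 LC rats. C1qa came next with a mean of 85.8 TPM over all rats, followed by Selplg (58.1 TPM), Csf1r (51.2 TPM), C1qb (51.2 TPM), Fcer1g (46.4 TPM), C1qc (43.1 TPM) and Cx3cr1 (35.1 TPM). From Selplg down to C1qc the ranges over rats overlapped for every pair of neighbours. Homeostatic surface markers were in the middle, with P2ry12 at 18.2 TPM, Gpr34 at 17.8 TPM and Tmem119 at 13.6 TPM. Transcription factors were lower, with Irf8 at 5.38 TPM, Spi1 at 4.73 TPM and Ikzf1 at 2.76 TPM. The lowest members were Ptprc (1.48 TPM), Hpgds (0.603 TPM) and Siglech (0.00515 TPM).

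**Figure D1:**
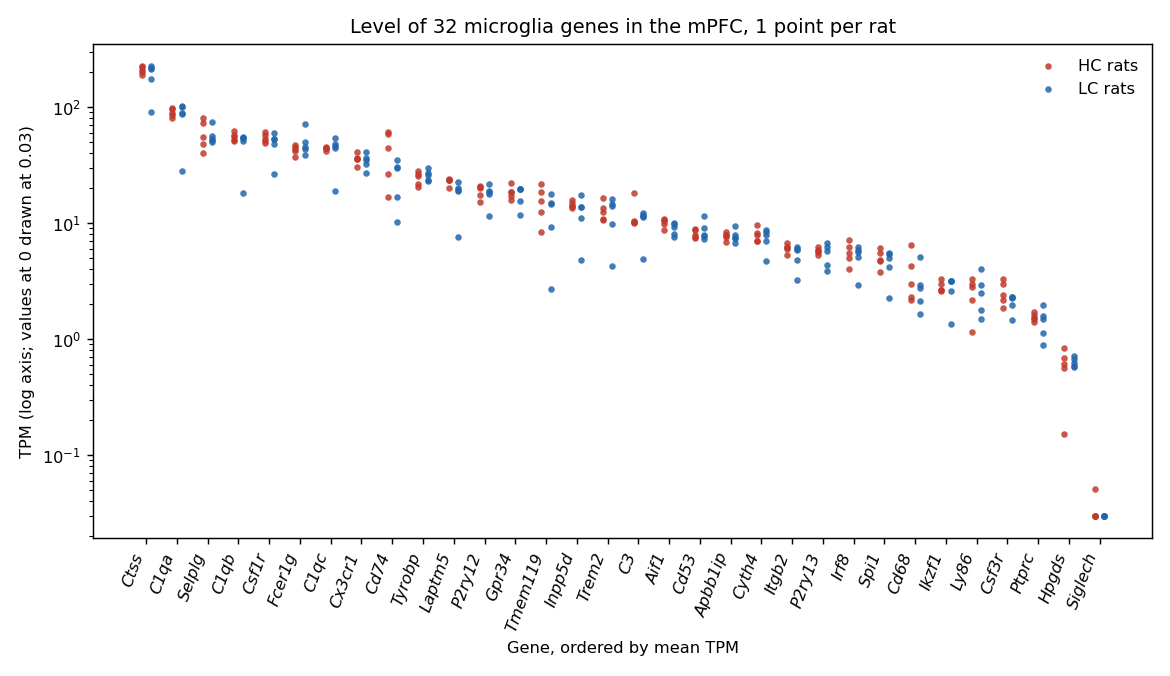
Level of each of the 32 microglia genes in the tables, as TPM on a log axis, with 1 point per rat (red for HC rats, blue for LC rats) and genes ordered by their mean. The points of HC and LC rats lie over each other for every gene, from Ctss at a mean of 196 TPM to Siglech, which is at 0 in 9 of the 10 rats, and the single low LC point in many genes is LC rat 2.

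The 2 untested members were low in every rat. Siglech, a sialic acid-binding lectin that marks microglia in mice, had 1 exon read over all 10 rats, in HC rat 11, against 74 reads over the whole gene. Hpgds, a prostaglandin D synthase, had 1 to 10 exon reads per rat and 62 in all. Exon reads of Siglech were thus almost absent, while other defining markers (Cx3cr1, P2ry12, Tmem119, Csf1r and Trem2) were present in all 10 rats. The reason was not tested.

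No microglia gene passed the test for a difference between HC and LC rats. Of the 30 tested genes, 12 had a higher mean in HC rats and 18 a lower one, and none passed an adjusted p of 0.05 (edgeR's quasi-likelihood test, Benjamini-Hochberg over 14135 genes, adjusted p from 0.885 to 0.992 in the members). Over all tested genes 0 (0%) passed the adjusted threshold in edgeR, in DESeq2 or in limma-voom, while 246 passed an unadjusted p of 0.05 in edgeR, 301 in DESeq2 and 182 in limma-voom. At an unadjusted p of 0.05, 0 microglia genes were higher in HC rats, where 0.722% of all tested genes were, and 0 were lower, where 1.02% of all tested genes were. The count at the unadjusted threshold was also 0 for the members by DESeq2 (smallest p 0.0639) and by limma-voom (smallest p 0.119). None met the study's criterion (unadjusted −log10 p from 1.3 upward, log2 fold change 0.58 or more in either direction), which 0.58% of all tested genes met. In no microglia gene did the values of the groups fail to overlap, and 0.439% of all tested genes did so. With 30 genes, fewer than 1 gene would be counted at any of these background shares, so counts of 0 are near the background.

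The median log2 fold change (HC over LC) of the 30 genes was −0.05, beside a median of 0.005 over all tested genes. Single values ran from −0.53 (Fcer1g) to 0.60 (Cd74), and 22 of the 30 were within 0.2 of 0. The 95% intervals set a limit on what could have been missed. In 28 of the 30 genes the interval lay within 1 of 0 at both ends, and in 21 it lay within 0.58 of 0, against 69.9% of all tested genes for the narrower bound. Summed over the members, HC rats had 588 ± 35.9 CPM (SD, n = 5) and LC rats 589 ± 35.8 CPM (SD, n = 5). Without LC rat 2, 8 genes had a higher mean in HC rats and 22 a lower one. The split between higher and lower means depended on the scaling, since library size alone gave 18 higher and 12 lower, with the median of all tested genes then at 0.10.

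**Figure D2:**
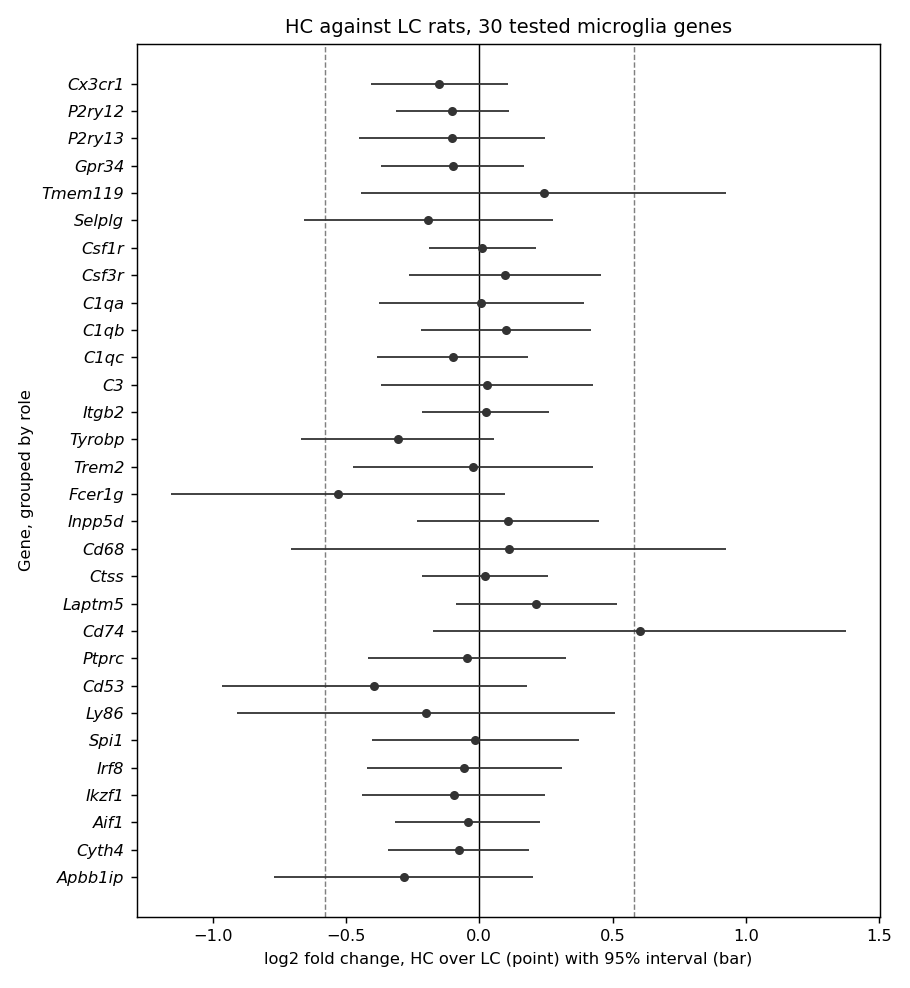
Difference between HC and LC rats for the 30 tested microglia genes, grouped by role, as the log2 fold change (point, HC over LC) with its 95% interval (bar). The solid line marks 0 and the dashed lines a log2 fold change of 0.58 in either direction, and the interval of every gene crosses 0.

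Purinergic and chemokine receptors came first in the order of roles. All 4 (Cx3cr1, P2ry12, P2ry13 and Gpr34) had a lower mean in HC rats, by log2 fold changes of −0.15 to −0.10, and none passed an unadjusted p of 0.05. Cx3cr1 (chr8:128740756-128754514), the fractalkine receptor, had 21.5, 21.6, 17.4, 24.8 and 22.9 CPM in HC rats 9, 10, 11, 15 and 16, against 28.8, 23.8, 20.7, 21.4 and 25.6 CPM in LC rats 2, 4, 12, 13 and 14. The groups overlapped, with the highest value in LC rat 2 and the lowest in HC rat 11. Its log2 fold change was −0.15 ± 0.12 (SE, 95% interval −0.41 to 0.11, adjusted p = 0.885 by edgeR).

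P2ry12 (chr2:149441598-149444548), the ADP receptor that steers microglial processes, had 11.1, 10.0, 11.3, 11.6 and 9.32 CPM in HC rats, in the same order of rats, against 11.5, 11.8, 11.2, 10.3 and 12.7 CPM in LC rats. These were among the most even values of the list, with a within-group SD of 0.12 on the log2 scale. P2ry12 gave a log2 fold change of −0.10 ± 0.10 (SE, 95% interval −0.31 to 0.11, adjusted p = 0.885 by edgeR), so a difference beyond 0.31 in size lay outside the interval. P2ry13, a related ADP receptor, ranged from 2.97 to 3.74 CPM in HC rats and from 2.52 to 3.93 CPM in LC rats. Gpr34, a receptor for lysophosphatidylserine, ranged from 9.39 to 13.0 CPM in HC rats and from 9.40 to 12.7 CPM in LC rats.

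These 3 receptors carry an uncertainty that the other genes do not. P2ry12 and P2ry13 lie 9492 bases apart inside the gene Med12l on the opposite strand, and Gpr34 lies inside Cask (chromosome X) on the opposite strand. Only 3.25% of the exon reads of P2ry12, 0% of those of P2ry13 and 3.48% of those of Gpr34 were counted as unique to the gene, against at least 98.2% in every other tested member. Whether strand was used in the counting is not stated in the sources at hand. Over all rats P2ry12 had 1572, Gpr34 1525 and P2ry13 469 exon reads per kilobase. The introns of Med12l and Cask had 12.2 and 10.2 reads per kilobase. Their exons held 8355 reads over 10248 bases in Med12l and 11742 reads over 4039 bases in Cask. Which gene the shared reads came from was not tested.

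Other surface proteins and growth factor receptors followed. Tmem119 (chr12:48598647-48605704), a membrane protein used to tell microglia from other macrophages, had 14.9, 12.4, 20.4, 18.4 and 8.79 CPM in HC rats, against 4.72, 10.0, 15.2, 15.1 and 18.0 CPM in LC rats. Its spread among rats was wide in both groups, and LC rat 2 was the lowest of all, at 0.324 of the mean of the other 4 LC rats. Between groups Tmem119 had a log2 fold change of 0.24 ± 0.31 (SE, 95% interval −0.44 to 0.93, adjusted p = 0.885 by edgeR), and 0.05 without LC rat 2. Selplg, the P-selectin ligand whose gene lies 19451 bases from Tmem119, went the other way in that library, with 56.8 CPM in LC rat 2 against 24.5 to 46.1 CPM in the other 9 rats.

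Csf1r (chr18:56414488-56458300), the receptor on which microglial survival depends, had 102, 89.5, 87.9, 110 and 103 CPM in HC rats, against 83.6, 94.1, 102, 97.5 and 111 CPM in LC rats. With a log2 fold change of 0.01 ± 0.09 (SE, 95% interval −0.19 to 0.21, adjusted p = 0.978 by edgeR) it had the narrowest interval of the list. Csf3r, the receptor for granulocyte colony-stimulating factor, had a lower level per length (mean 2.30 TPM over all rats) and stood at 4.71 ± 1.03 CPM in the 5 HC rats (mean ± SD) and 4.41 ± 0.372 CPM in the 5 LC rats.

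Complement genes were abundant, and none of the 5 tested passed the test with all rats. The 3 chains of C1q, which starts the classical complement cascade and tags synapses for removal, are encoded side by side on chromosome 5 (C1qa at chr5:155261250-155264143, C1qc at chr5:155255005-155258392, C1qb at chr5:155246447-155252003). C1qa had 37.7, 46.9, 40.5, 46.3 and 43.4 CPM in HC rats, against 23.4, 46.6, 51.7, 42.5 and 49.0 CPM in LC rats. C1qb had 26.8, 30.6, 24.3, 28.2 and 27.0 CPM in HC rats, against 15.9, 27.4, 29.1, 27.3 and 27.6 CPM in LC rats. C1qc had 20.3, 22.2, 20.8, 22.6 and 23.3 CPM in HC rats, against 16.4, 29.2, 24.4, 22.3 and 24.4 CPM in LC rats. In all 3 chains LC rat 2 was the lowest of the 10 rats, and the groups overlapped.

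The log2 fold change was 0.01 ± 0.18 for C1qa, 0.10 ± 0.15 for C1qb and −0.10 ± 0.13 for C1qc (SE, adjusted p of at least 0.885 by edgeR). Without LC rat 2 they were −0.14, −0.03 and −0.20, and C1qc then passed the unadjusted threshold (95% interval −0.38 to −0.02, adjusted p = 1 by edgeR). Without LC rat 4, which had the highest C1qc value, C1qc stood at −0.01. The chains kept close proportions per length, with C1qa at 1.45 to 1.72 times the TPM of C1qb in HC rats and 1.52 to 1.84 times in LC rats, and C1qc at 0.719 to 0.859 times in HC rats and 0.812 to 1.06 times in LC rats.

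C3 (chr9:9721105-9747167), the central complement protein, had 23.8, 43.3, 22.7, 24.3 and 25.5 CPM in HC rats, against 20.2, 29.3, 28.5, 28.1 and 29.7 CPM in LC rats. HC rat 10 was far above every other rat, and the remaining 4 HC rats lay below LC rats 4, 12, 13 and 14. For C3 this gave 0.03 ± 0.18 on the log2 scale (SE, 95% interval −0.37 to 0.43, adjusted p = 0.970 by edgeR), and leaving out single rats moved it between −0.18 and 0.10. Itgb2, the beta chain that pairs with Itgam in complement receptor 3, ranged from 7.20 to 9.47 CPM in HC rats and from 7.52 to 9.22 CPM in LC rats.

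**Figure D3:**
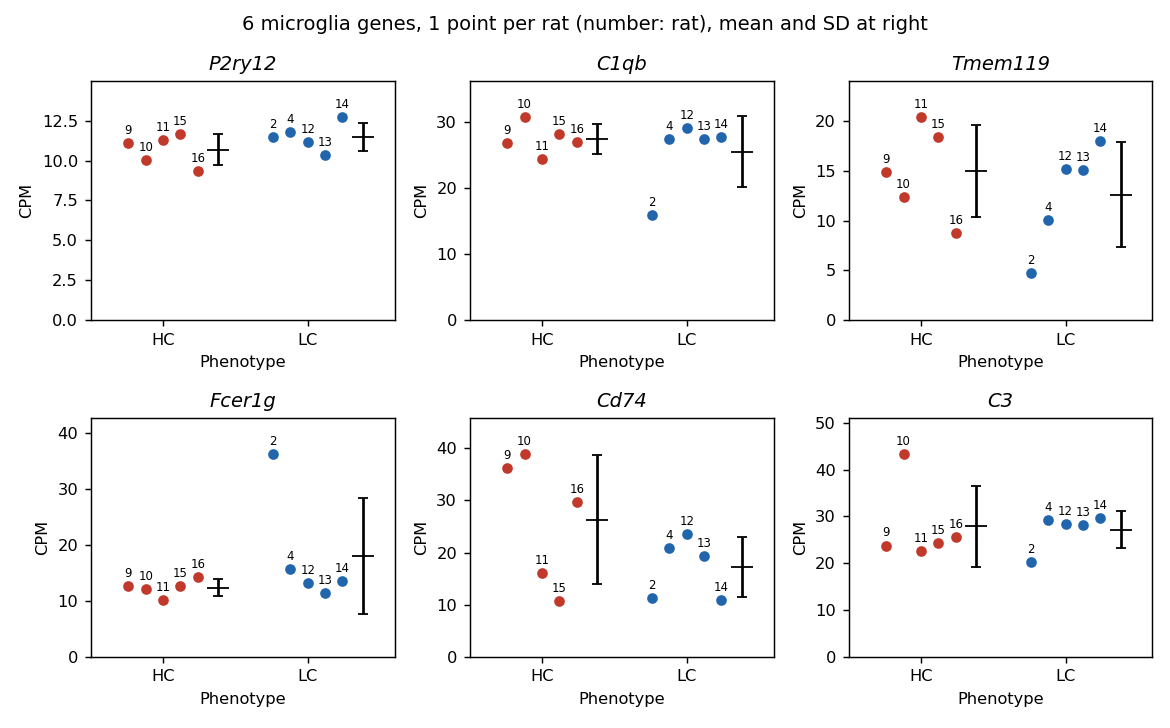
CPM of 6 microglia genes in each rat, HC at the left and LC at the right of each panel, with the rat's number above its point and the group mean and SD (n = 5) as a bar beside the points. LC rat 2 is the lowest rat in C1qb (15.9 CPM), Tmem119 (4.72 CPM) and C3 (20.2 CPM) and the highest in Fcer1g (36.2 CPM), HC rat 10 is the highest in C3 (43.3 CPM), and P2ry12 is even across all 10 rats.

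Of the 4 immunoreceptor signalling genes 1 had a log2 fold change above 0 and 3 had one below 0, none past the test, and Fcer1g among them had the most negative value of the list. Tyrobp (chr1:88875375-88879303), the adaptor that carries the signal of Trem2, had 7.16, 5.93, 5.40, 6.95 and 8.27 CPM in HC rats, against 11.2, 8.13, 8.70, 6.63 and 7.28 CPM in LC rats. LC rat 2 was the highest and HC rat 11 the lowest, and the other rats of both groups were mixed. Tyrobp showed a log2 fold change of −0.31 ± 0.17 (SE, 95% interval −0.67 to 0.06, adjusted p = 0.885 by edgeR), and the exact permutation test gave the smallest p of the list (p = 0.119, two-sided, where the smallest possible is 0.0079). It was −0.19 without LC rat 2. It passed the unadjusted threshold without HC rat 16 (−0.39) or without LC rat 13 (−0.38).

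Fcer1g (chr13:89601896-89606326), the gamma chain shared by several Fc receptors, had 12.6, 12.1, 10.1, 12.6 and 14.3 CPM in HC rats, against 36.2, 15.7, 13.1, 11.4 and 13.5 CPM in LC rats. A single library, LC rat 2, was 2.69 times the mean of the other 4 LC rats. With all rats Fcer1g stood at a log2 fold change of −0.53 ± 0.29 (SE, 95% interval −1.16 to 0.10, adjusted p = 0.885 by edgeR), −0.12 without LC rat 2 and −0.05 without LC rats 2 and 4. Leaving out LC rat 13 gave −0.66, which passed the unadjusted threshold.

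Trem2 (chr9:14611561-14618013), a lipid-sensing receptor that signals through Tyrobp, had 6.39, 5.68, 6.72, 8.59 and 6.01 CPM in HC rats, against 3.95, 5.69, 8.95, 7.47 and 7.86 CPM in LC rats. Trem2 and its adaptor thus took opposite places in LC rat 2, lowest of all rats in one and highest in the other. The log2 fold change of Trem2 was −0.02 ± 0.21 (SE, 95% interval −0.47 to 0.43, adjusted p = 0.981 by edgeR). Inpp5d, the lipid phosphatase SHIP1 that restrains this signal, averaged 32.4 ± 2.03 CPM in the 5 HC rats (mean ± SD) and 29.9 ± 7.595 CPM in the 5 LC rats, and LC rat 2 was again the lowest with 19.0 CPM.

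Lysosomal, antigen-handling and leukocyte membrane genes (4 with a log2 fold change above 0 and 3 below, none past the test) included Cd74, which had both the most positive value of the list and the largest spread within groups. Ctss (chr2:197655786-197679458) had 92.4, 99.7, 81.3, 101 and 95.4 CPM in HC rats, against 71.5, 85.7, 104, 97.4 and 104 CPM in LC rats. Its log2 fold change was 0.02 ± 0.11 (SE, 95% interval −0.22 to 0.26, adjusted p = 0.966 by edgeR). Laptm5 (chr5:149047681-149069719), a lysosomal membrane protein, had 24.5, 25.8, 20.6, 25.2 and 26.6 CPM in HC rats, against 14.3, 23.5, 21.3, 21.2 and 25.1 CPM in LC rats. Its log2 fold change of 0.21 ± 0.14 (SE, 95% interval −0.09 to 0.51, adjusted p = 0.885 by edgeR) was 0.10 without LC rat 2, the lowest rat.

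Cd74 (chr18:56071478-56080849), the invariant chain that escorts MHC class II molecules, had 36.2, 38.9, 16.0, 10.7 and 29.8 CPM in HC rats, against 11.3, 20.9, 23.6, 19.4 and 10.8 CPM in LC rats. HC rats 9, 10 and 16 were above every LC rat, while HC rats 11 and 15 lay within the LC range or below it. The log2 fold change was 0.60 ± 0.35 (SE, 95% interval −0.17 to 1.38, adjusted p = 0.885 by edgeR), 0.49 without LC rat 2, and 0.81 without HC rat 15, where it passed the unadjusted threshold. Of 5 MHC class II genes tested, 3 had a higher mean in HC rats and none passed an unadjusted p of 0.05. RT1-Da, an MHC class II alpha chain, had 6.67, 6.01, 3.46, 1.86 and 7.40 CPM in HC rats, against 1.16, 4.95, 5.17, 4.95 and 2.15 CPM in LC rats.

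Cd74 is also made by border-associated macrophages, which sit in the meninges and around vessels, and their markers were uneven among the same rats. Of 10 border macrophage markers 9 were in the tables, none of them at 0 in every rat, and their summed level was 23.4, 12.8, 13.2, 10.7 and 29.95 CPM in HC rats, against 11.8, 26.2, 9.53, 16.9 and 12.0 CPM in LC rats. HC rats 9 and 16 were high in Cd74, in these markers and in meningeal fibroblast markers, LC rat 4 was high in both sets of markers with 20.9 CPM of Cd74, and HC rat 10 was high in Cd74 but in neither set of markers. Of these markers 7 were tested, 6 of them with a higher mean in HC rats, 0 passing an unadjusted p of 0.05, and a median log2 fold change of 0.34 (0.14 without LC rat 2 and 0.72 without LC rat 4). The defining macrophage marker Mrc1 ranged from 2.51 to 10.1 CPM in HC rats and from 2.71 to 7.79 CPM in LC rats. The part of these cells in the Cd74 values was not tested.

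Cd53 (chr2:209489279-209537087), a tetraspanin of leukocytes, had 5.62, 6.09, 5.59, 6.80 and 7.14 CPM in HC rats, against 15.7, 6.51, 7.47, 5.71 and 6.25 CPM in LC rats. As with Fcer1g, LC rat 2 alone stood high, and the log2 fold change of −0.39 ± 0.26 (SE, 95% interval −0.97 to 0.18, adjusted p = 0.885 by edgeR) was −0.05 without it. Cd68, a lysosomal glycoprotein, ranged from 1.24 to 3.92 CPM in HC rats and from 0.985 to 3.12 CPM in LC rats, with HC rat 16, LC rat 4 and HC rat 9 highest. Ptprc (CD45) ranged from 3.24 to 4.18 CPM in HC rats and from 2.64 to 4.76 CPM in LC rats. Ly86, a partner of the receptor Cd180, ranged from 0.577 to 1.64 CPM in HC rats and from 0.756 to 2.17 CPM in LC rats, on 7 to 45 reads per rat.

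None of the 3 transcription factors that set the identity of these cells passed the test. Spi1 (chr3:79918969-79938301), which encodes PU.1, had 4.19, 4.28, 3.27, 5.46 and 5.31 CPM in HC rats, against 3.56, 5.42, 4.02, 4.58 and 5.01 CPM in LC rats. Irf8 (chr19:54314865-54336640), a partner of PU.1, had 6.28, 7.25, 4.97, 9.35 and 8.62 CPM in HC rats, against 6.64, 7.25, 7.80, 8.27 and 7.82 CPM in LC rats. HC rat 11 was lowest and HC rat 15 highest of all rats in both genes. The log2 fold change was −0.01 ± 0.18 for Spi1 and −0.06 ± 0.17 for Irf8 (SE, adjusted p = 0.987 and 0.934 by edgeR). Ikzf1, a zinc finger factor of leukocytes, averaged 3.33 ± 0.486 CPM in the 5 HC rats (mean ± SD) and 3.54 ± 0.479 CPM in the 5 LC rats.

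Of the cytoskeletal and adhesion genes, Aif1 (the protein IBA1, widely used to stain microglia) averaged 8.25 ± 0.655 CPM in the 5 HC rats (mean ± SD) and 8.54 ± 1.38 CPM in the 5 LC rats. Its log2 fold change was −0.04 ± 0.12 (SE, 95% interval −0.32 to 0.23). Cyth4, a guanine nucleotide exchange factor, averaged 9.80 ± 1.46 CPM in HC rats and 10.4 ± 0.911 CPM in LC rats. Apbb1ip, an adaptor that links integrins to talin, averaged 11.0 ± 1.09 CPM in HC rats and 13.5 ± 5.71 CPM in LC rats, where LC rat 2 had 23.6 CPM and the other 4 LC rats 9.85 to 12.2 CPM. Without that rat its log2 fold change was 0.003.

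The members did not move as a block in LC rat 2. That library was above all other 9 rats in 7 members (Cx3cr1, Selplg, Tyrobp, Fcer1g, Cd53, Aif1 and Apbb1ip), below all of them in 11 (Tmem119, Csf1r, C1qa, C1qb, C1qc, C3, Trem2, Inpp5d, Ctss, Laptm5 and Ikzf1) and within their range in 12. In percent this was 23.3% above and 36.7% below, against 33.2% above and 35.5% below over all tested genes, so the members were not apart from other genes in how often this library was an extreme. Of the 4 genes whose promoters are written out above, Ctss, Laptm5 and Trem2 were lowest in LC rat 2 and Cd53 was highest there. The summed CPM of the members in this library (539 CPM) was near that of HC rat 11 (529 CPM), with the other 8 rats between 580 and 631 CPM. The part of its mitochondrial share and of its composition in these values was not tested.

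**Figure D4:**
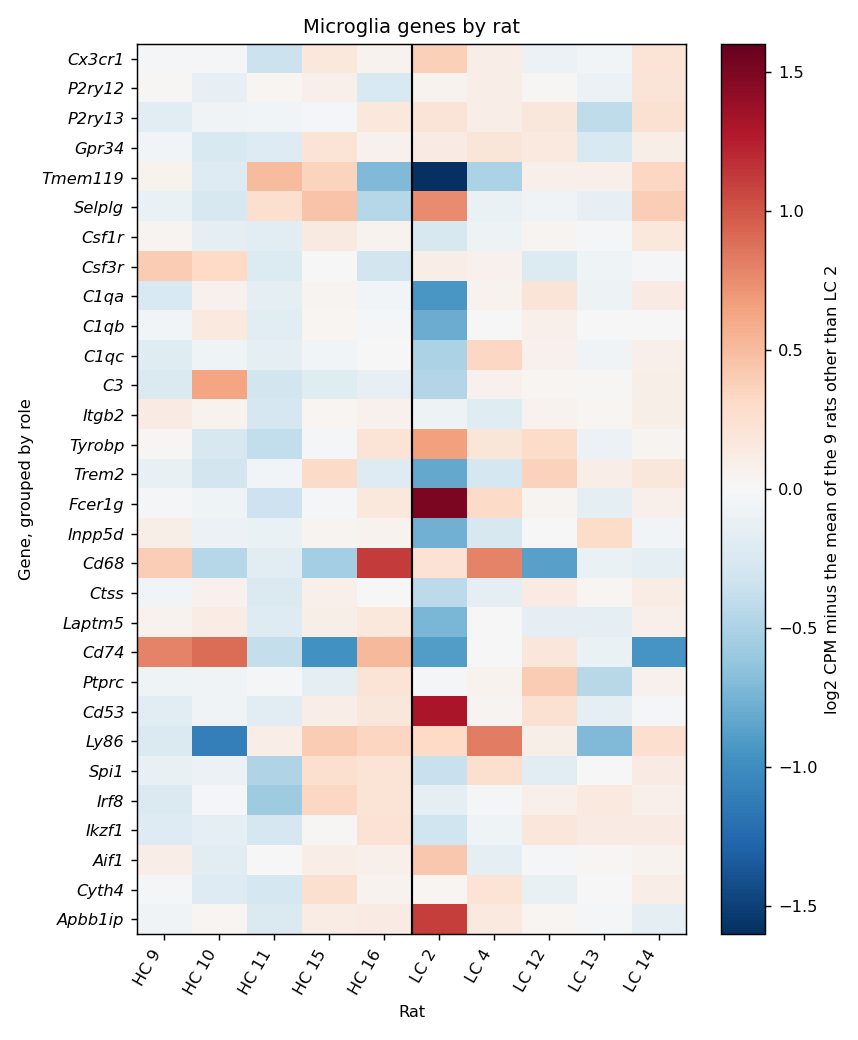
Level of the 30 tested microglia genes (rows, grouped by role) in each rat (columns, HC left of the line and LC right of it), as log2 CPM minus the mean of the 9 rats other than LC rat 2. The column of LC rat 2 holds both the deepest blue (Tmem119) and the deepest red (Fcer1g, Cd53), the column of HC rat 11 is pale blue in most rows, and no row separates the groups.

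HC rat 11 was the lowest rat in 9 of the 30 members and lay below the mean of the 9 rats other than LC rat 2 in 26, with a median deviation of −0.19 on the log2 scale. LC rat 14 lay above that mean in 24 members, with a median deviation of 0.09. The same counts were not made over all tested genes, so whether other genes shifted alike in these rats was not tested. The median within-group SD of the members on the log2 scale was 0.26 with all rats and 0.18 without LC rat 2, against 0.22 and 0.14 over all tested genes. Without LC rat 2 the steadiest members were C1qb (SD 0.10), Aif1 (0.11) and C1qc (0.12), and the most variable were Cd74 (0.69), Cd68 (0.65) and Ly86 (0.56). Cd68 had only 12 to 46 and Ly86 only 7 to 45 exon reads per rat, and the part of counting noise in their spread was not tested.

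Genes around the list were read in the same fit, where 0.722% of all tested genes were higher and 1.02% lower in HC rats at an unadjusted p of 0.05. A second set of 50 genes known from microglia, of which 47 were in the tables and tested, had 21 higher and 26 lower means in HC rats, 0 at an unadjusted p of 0.05 and a median log2 fold change of −0.01. Among 18 tested ligands and receptors that act on microglia, 0 passed. Cx3cl1, the neuronal ligand of Cx3cr1, had a log2 fold change of 0.04 ± 0.10, Il34 of 0.12 ± 0.15 and Csf1 of −0.003 ± 0.13 (SE). Of 17 other complement genes, 1 passed an unadjusted p of 0.05, higher in HC rats. It was Csmd2, a membrane protein with complement control domains, with 96.8, 77.7, 92.0, 89.9 and 77.1 CPM in HC rats, against 56.5, 62.5, 75.8, 78.6 and 76.1 CPM in LC rats (log2 fold change 0.31, unadjusted p = 0.0144 and adjusted p = 0.885 by edgeR). LC rats 2 and 4 were the lowest in Csmd2, while LC rats 12, 13 and 14 were close to HC rats 10 and 16.

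Of 16 genes linked to activated microglia, 11 were tested, and the 5 others (Ccl6, Clec7a, Cst7, Itgax and Spp1) had too few reads. The lipase Lpl was the 1 gene of this list at an unadjusted p of 0.05, with 9.36, 9.80, 11.1, 8.30 and 9.23 CPM in HC rats, against 20.0, 23.7, 9.03, 8.40 and 23.95 CPM in LC rats (log2 fold change −0.83, unadjusted p = 0.0148 and adjusted p = 0.885 by edgeR). At that threshold 1.02% of all tested genes were lower in HC rats. In Lpl, LC rats 2, 4 and 14 were above every other rat and LC rats 12 and 13 lay within the HC range. The same LC rats 2, 4 and 14 were also above every other rat in the striatal markers Penk, Rgs9 and Ppp1r1b, but not in the other striatal markers. The part of tissue makeup in the Lpl values was not tested. Apoe, a lipid carrier made by astrocytes and microglia, had a log2 fold change of 0.01 ± 0.12 (SE). Of 28 cytokine and inflammation genes 18 were tested and 0 passed. The messages of Il1b, Il6, Tnf, Ccl2, Ccl3 and Ccl4 were near the limit of detection, with 5 (Il6) to 60 (Tnf) exon reads over all rats.

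Interferon-induced genes set 1 LC rat apart. Of 19 tested genes of the interferon and MHC list, 2 passed an unadjusted p of 0.05, Ifit2 (log2 fold change −0.96) and Ifit3 (−1.71), both lower in HC rats, and the median of the list was −0.54 (0.02 without LC rat 13). LC rat 13 was the highest rat in 12 of the 14 genes that are not MHC class II. Ifit3 had 1.32, 1.98, 0.805, 1.13 and 2.09 CPM in HC rats, against 2.70, 0.813, 3.04, 15.4 and 0.662 CPM in LC rats. Mx1 stood at 16.5 CPM and Irf7 at 10.7 CPM in LC rat 13, while neither exceeded 2.53 CPM in any other rat. The same rat had the lowest P2ry12 (10.3 CPM), P2ry13 (2.52 CPM) and Gpr34 (9.40 CPM) of the LC rats, Tyrobp and Fcer1g at 6.63 and 11.4 CPM were also its group's lowest, and its Inpp5d (39.6 CPM) was the highest of all rats. Except for P2ry13, the low values were not the lowest of all rats. P2ry12 was 9.32 CPM in HC rat 16, Gpr34 9.39 CPM in HC rat 10, and Tyrobp and Fcer1g 5.40 and 10.1 CPM in HC rat 11. Tmem119, Csf1r and Trem2 of LC rat 13 were not its group's lowest. Of the 30 tested members, LC rat 13 was the lowest of all rats in 2 and the highest in 1. The members named here were picked after their values were seen. How often this rat is its group's lowest over all tested genes was not counted. P2ry12, P2ry13 and Gpr34 also have few reads unique to them, as given above. Values of 1 rat are a description, and whether the interferon-induced genes and these members move together was not tested.

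**Figure D5:**
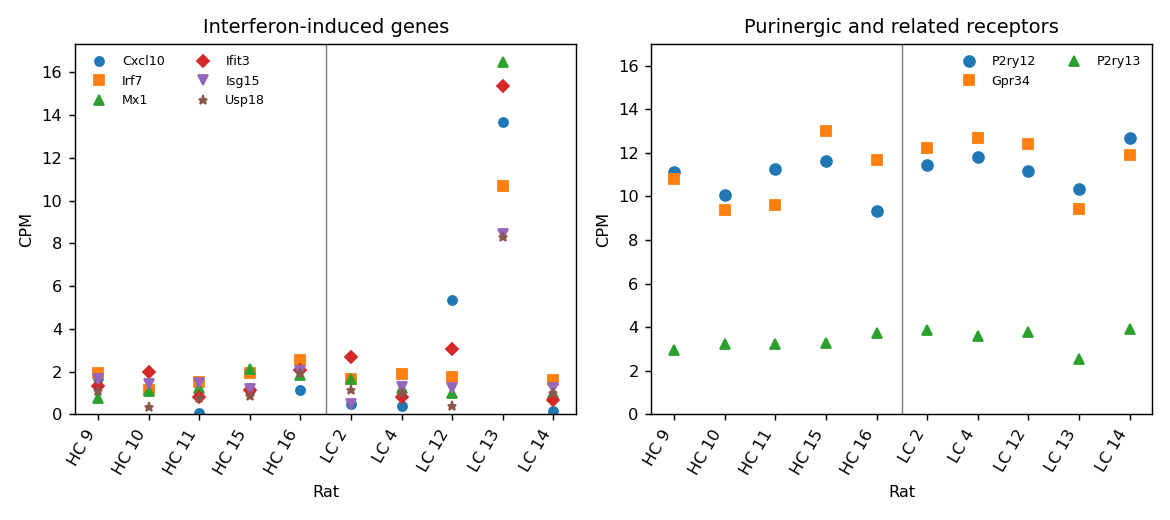
CPM of 6 interferon-induced genes (left panel) and of the receptors P2ry12, Gpr34 and P2ry13 (right panel) in each rat, with HC rats left of the line and LC rats right of it. All 6 interferon-induced genes peak in LC rat 13 (for example Mx1 at 16.5 CPM), and the 3 receptors have their lowest LC value in the same rat. P2ry12 is lower in HC rat 16 (9.32 CPM) and Gpr34 in HC rat 10 (9.39 CPM). The receptors were picked for this figure after their values were seen.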

How the data were processed

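RNA-seq of the mPFC of 10 rats (5 HC, 5 LC, grouped by the phenotype in the sample labels) was read from 1 deposited table per rat. The authors prepared stranded libraries, sequenced single-end reads, and mapped and counted them with the CLC Genomics Workbench on Rnor_6.0. The study used 12 rats and left out 1 of each phenotype for quality. The deposited counts are reads per gene in exons, introns and whole genes, and the deposited TPM were made by the authors from exon reads per length with mitochondrial genes in the total. A further deposited table holds only the authors' own fold changes and p-values and was not used.

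Exon read counts were filtered with filterByExpr, scaled by TMM and tested with the quasi-likelihood test of edgeR 4.0.16 (R 4.3.3), and p-values were adjusted over 14135 genes (Benjamini-Hochberg). The standard error is the log2 fold change over the square root of F, and intervals are 95% on the degrees of freedom of the fit. CPM are exon reads relative to the scaled library. For single genes an exact permutation test of all regroupings of 5 against 5 rats (two-sided) used log2 CPM, prior count 2. Alternatives were DESeq2 1.42.0, limma 3.58.1 (voom on counts, and log2 TPM with pseudocounts of 1 and 0.1), other scalings, filters and read types, a mitochondrial covariate, and rats left out. The scripts were tested on simulated data. The rats are separate animals and the spread between them is biological and technical together. No 2 libraries of a group agreed within counting noise (the smallest chi-square per gene between 2 rats was 6.56).

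Values per rat were planned for 16 genes chosen as defining markers and printed for all of them except Itgam. They were also printed for the 3 largest log2 fold changes in each direction. The members and the gene lists were chosen with earlier results of these data known. Other genes named were chosen after their values were seen.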

Additional observations from a re-analysis of the deposited data

Results flagged for a closer look

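Of 62 groups of 5 rats (31 genes in HC and in LC), 10 held a rat whose gap to the nearest of the others was beyond Dixon's critical value of 0.71. Chance alone gives about 1 in 20 for independent groups, but these groups share the same 10 rats. The count was not made over all tested genes, so it does not set the members apart. Of the 10, 6 were in LC rat 2, which was above all other rats in 33.2% and below them in 35.5% of all tested genes. The high values of LC rat 2 were Fcer1g at 36.2 CPM (other LC rats 11.4 to 15.7), Cd53 at 15.7 CPM (5.71 to 7.47), Apbb1ip at 23.6 CPM (9.85 to 12.2) and Hpgds at 0.674 CPM (0.328 to 0.372, on 1 to 10 reads per rat). Its low values were C1qb at 15.9 CPM (27.3 to 29.1) and C3 at 20.2 CPM (28.1 to 29.7). LC rat 13 was low in P2ry13 at 2.52 CPM (other LC rats 3.59 to 3.93) and in Gpr34 at 9.4 CPM (11.9 to 12.7). Among HC rats, rat 10 was high in C3 at 43.3 CPM (22.7 to 25.5) and rat 11 was low in Itgb2 at 7.2 CPM (8.84 to 9.47). The causes of these values were not tested.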

How the results depend on the processing

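No paired analysis was possible because the labels give HC and LC rats no shared replicate numbers. Over 26 alternatives, the members gave 775 log2 fold changes, of which 734 kept their side of the unadjusted threshold and moved by less than the spread between rats, 35 moved by more, 5 passed the threshold (all with 1 rat left out, given in the report) and 1 reversed. The reversed value was C1qa, at −0.26 with the mitochondrial share as a covariate, which made 1 member (C1qa) lower in HC rats. That share ran from 7.65% to 10.8% in HC rats and from 10.0% to 28.4% in LC rats, so it is partly tied to phenotype. The sign changed 112 times, in 27 members. Genes at an unadjusted p of 0.05 numbered 246, against 451 with every gene of at least 1 read kept, 532 by limma on log2(TPM + 1) with every gene above 0 kept, 474 with the covariate, and 154 to 634 with single rats left out. Genes at an adjusted p of 0.05 were 0, but 1 by limma on log2(TPM + 1) with every gene above 0 kept (AABR07066818.1, with 40 exon reads over all rats). Members higher in HC rats numbered 0 to 1 and members lower 0 to 2 with single rats left out. The median of the members was −0.05 and ran from −0.10 to −0.02 with single rats left out. It was 0.05 with library size alone (all tested genes 0.10). By limma it was 0.15 on log2(TPM + 1), 0.18 on log2(TPM + 0.1) and 0.13 on log2(TPM + 1) with every gene above 0 kept, with all tested genes at 0.20, 0.23 and 0.16, so the sign of most members turned with those of other genes (25 of 30 higher). Low read counts limit Hpgds, Siglech and Ly86 most. Cocaine intake cannot be told apart from phenotype, and the part of the second cue test and of the cell makeup of the tissue was not tested.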
